A study of Mus musculus with 48 samples.

Results

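The sequences described here are class-switched antibody heavy-chain sequences of mice whose V segment carried no difference from germline. They were chosen by their number of V mutations and their constant gene, as all rows of the deposited B cell receptor (BCR) tables with 0 V mutations and an IGHA, IGHG1, IGHG2B, IGHG2C, IGHG3 or IGHE constant gene. A row is 1 listed sequence with its isotype and count. Identical sequences of 1 isotype can fill more than 1 row of a library, and joining them is among the alternatives below. The rule found 175835 rows among 751153 switched rows and 4834214 rows in all. Of these, 40097 came from the lacrimal gland (LG) and 135738 from the spleen. All mice were C57BL/6 (B6). The 10 NOD-FMT mice, 5 weeks old at transfer, had their feces mixed between cages for 7 days, drank ampicillin, vancomycin and metronidazole for 7 days, and were then gavaged daily for 3 weeks with fecal supernatant of NOD.B10.H2b mice, a strain with autoimmune dry eye. The 9 PBS-T mice went through the same steps with PBS in place of feces. The 5 NC1 mice received no treatment, and their age is not given in the sources used here. The LG and the spleen of each mouse gave 1 library each, 48 in all, made from total RNA with primers in the first constant domain that carried a unique molecular identifier (UMI). In such bulk RNA, fewer cells of a kind and less RNA per cell cannot be told apart.

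A naive B cell carries IgM and an unmutated V segment. Class switching joins the same V(D)J exon to a downstream constant gene, and somatic hypermutation, carried out by the same enzyme, AID, writes point mutations into the V(D)J exon, mostly in germinal centers. Both can occur apart from each other, so a switched antibody may still have its germline V segment. IgA is the main switched isotype of mucosal and exocrine tissue, and the lacrimal gland secretes it into the tear film.

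The constant genes lie on chromosome 12 in GRCm38, on the minus strand, so that transcription runs from Ighm at 113418558-113422730 to Ighg3 at 113356224-113361232, Ighg1 at 113325240-113330523, Ighg2b at 113302965-113307933, Ighg2c at 113285325-113288932, Ighe at 113269260-113273248 and Igha at 113254830-113260236. The J genes lie upstream of Ighm, from Ighj1 at 113429781-113429833 to Ighj4 at 113428514-113428567.

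The following HCDR3 sequences, the loop where V, D and J join, belong to unmutated switched clonotypes on which the results below turn. A clonotype shares its V gene, J gene and HCDR3 residues, and the most abundant unmutated switched row of each is printed, with capitals for bases that the alignment assigned to no V, D or J gene. Clonotypes P to U were among those found in the most mice, and clonotypes W to Y among those with the largest share of the switched counts of 1 library.
P (IGHV6-3, IGHJ3, LG): acaggAgatggAtttgcttac
Q (IGHV6-3, IGHJ3, LG): acagGCCAGGggtttgcttac
R (IGHV6-6, IGHJ3, LG): accaggctgggTtttgcttac
S (IGHV1-76, IGHJ2, spleen): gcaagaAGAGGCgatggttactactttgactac
T (IGHV1-55, IGHJ3, spleen): gcaaGGGGCtttacttac
U (IGHV7-1, IGHJ1, spleen): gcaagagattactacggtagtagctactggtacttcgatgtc
W (IGHV1-9, IGHJ2, LG): tactacggtagtagctttgactac
X (IGHV1-72, IGHJ3, LG): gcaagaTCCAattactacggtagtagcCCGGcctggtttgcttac
Y (IGHV5-4, IGHJ4, spleen): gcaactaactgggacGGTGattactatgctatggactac
Clonotypes U and W held no unassigned base, whereas T and Q, in which no D gene was assigned, consisted of a V end, an unassigned run and a J start. In T that J start differs at 1 base from the same stretch of P, Q, R and X, which also use IGHJ3. The HCDR3 residues of T end in TY and theirs in AY, so all rows of T share this difference. Whether it is a mutation was not tested.

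Libraries held 40513 to 360216 counts in the LG and 86717 to 2302185 in the spleen. Members per library ranged from 416 to 12749 in the LG and from 1254 to 19735 in the spleen. A nucleotide sequence seen in at least 3 mice of the same tissue was left out, which took 4.38% of the unmutated and 0.354% of the mutated switched rows and left 168140 members. All values below are of those rows unless stated. PBS-T mouse 5 alone held 12434 of the 39020 LG members kept. Some LGs still shared member sequences after that filter. NC1 mice 2 and 3 had 277 nucleotide sequences in common, 36.8% of the smaller set, and PBS-T mouse 5 held 16.9% of those of NC1 mouse 4, 11% of those of PBS-T mouse 7, and 9.03%, 6.57% and 6.27% of those of NC1 mice 3, 1 and 5. Beyond these 6 of 276 pairs of LGs, a pair shared at most 3.25%, with a median of 0% over all pairs, and pairs of spleens at most 0.245%. The labels call these separate mice, and how the sequences came to be shared was not tested. Members made up a median of 26.6% of the kept rows of an LG library and 2.88% of those of a spleen library.

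In the spleen, with all switched isotypes pooled, PBS-T mice had the largest unmutated share of switched rows. The share ranged from 19.8% to 35.0% in PBS-T mice, with a median of 29.8%, from 18.9% to 25.1% in NOD-FMT mice, with a median of 22.8%, and it was 20.5%, 21.0%, 21.3%, 21.2% and 18.2% in NC1 mice 1 to 5. The groups overlapped, and the low end of the PBS-T range lay within the range of the others. Means were 28.2% ± 5.6 (SD, n = 9), 22.6% ± 2.1 (SD, n = 10) and 20.4% ± 1.3 (SD, n = 5). NOD-FMT minus PBS-T was -5.57 points (exact permutation p = 0.0106, two-sided), and PBS-T was 7.74 points above NC1 (exact permutation p = 0.017). The latter call was lost with each clonotype counted once per class (5.40 points, exact permutation p = 0.0504) and with the isotypes weighted equally (3.09 points, exact permutation p = 0.345). The groups differed in their mix of isotypes, on which the pooled share depends. IGHA made up a median of 53.0% of members and 75.3% of mutated switched rows in NC1 spleens. It was 42.9% and 57.7% in PBS-T, and 39.0% and 47.5% in NOD-FMT spleens. The 2.17 points between NOD-FMT and NC1 did not pass the test (exact permutation p = 0.0579). They did pass with a single V mutation allowed, among rows of 2 or more counts, after thinning to the lowest total, or without NOD-FMT mouse 3 or 7. They also passed without V genes seldom unmutated in IGHM, described below, and the sign turned with the isotypes weighted equally. Weighted by counts, the NOD-FMT difference from PBS-T was -5.36 points and no longer passed (exact permutation p = 0.27).

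In the LG, both gavaged groups had more unmutated switched rows than NC1 mice. The share was 19.4% to 37.8% in NOD-FMT mice, with a median of 28.1%, and 16.6% to 38.6% in PBS-T mice, with a median of 30.3%. In NC1 mice 1 to 5 it was 20.6%, 24.1%, 20.2%, 20.0% and 20.9%. NOD-FMT mice averaged 28.9% ± 5.4 (SD, n = 10), 7.77 points above the 21.2% ± 1.7 (SD, n = 5) of NC1 mice (exact permutation p = 0.0117). PBS-T mice averaged 28.7% ± 6.6 (SD, n = 9), 7.52 points above NC1 (exact permutation p = 0.031), and that call was lost when any of 8 mice was left out (PBS-T mouse 3, 6, 7 or 9, or NC1 mouse 1, 3, 4 or 5), with exact permutation p up to 0.0587. The call between PBS-T and NC1 was also lost with sequences of 3 or more mice kept, with rows weighted by counts and with a single V mutation allowed. NOD-FMT and PBS-T differed by 0.25 points (exact permutation p = 0.929). The tables of 11 LGs joined rows with 2 library prefixes each, and within these NOD-FMT minus PBS-T was -2.73 points, against 2.20 points in the other LGs. In those others, NOD-FMT exceeded NC1 by 6.55 points (exact permutation p = 0.0286) and PBS-T exceeded NC1 by 4.35 points (exact permutation p = 0.222), and the joined tables held 1 NC1 mouse only. With every sequence found in 2 or more mice left out, NOD-FMT exceeded NC1 by 9.79 points (exact permutation p = 0.00366) and PBS-T exceeded NC1 by 9.41 points (exact permutation p = 0.012). Leaving out shared sequences took a larger part of the members of NC1 than of NOD-FMT LGs. The main filter kept 759 of 821, 853 of 914, 765 of 865, 616 of 717 and 728 of 793 in NC1 mice 1 to 5. In NOD-FMT mouse 4, the NOD-FMT LG that lost most, it kept 1076 of 1116, and in PBS-T mouse 7 it kept 657 of 749. Such a filter can thus by itself lower the NC1 share and widen these differences. Without the LGs of NC1 mice 2 and 3 and PBS-T mouse 5 these differences were 8.42 points (exact permutation p = 0.035) and 9.69 points (exact permutation p = 0.0182), on 3 NC1 mice, and NOD-FMT minus PBS-T was -1.26 points (exact permutation p = 0.623). Both comparisons with NC1 lost their call when the isotypes were weighted equally, at 3.66 points for NOD-FMT (exact permutation p = 0.433) and 5.52 for PBS-T (exact permutation p = 0.395). That weighting set no minimum of rows, and the 5 NC1 LGs held 17 IGHG3 and 63 IGHG1 rows in all. Within IGHA the means were 28.0% in NOD-FMT, 28.1% in PBS-T and 20.1% ± 1.6 (SD, n = 5) in NC1 LGs, and the distance from NC1 within IGHA was not tested.

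The LG values moved with the unit of counting and with depth. Weighted by counts, the unmutated share was 74.5% ± 7.9 (SD, n = 10) in NOD-FMT, 62.2% ± 15.9 (SD, n = 9) in PBS-T and 49.6% ± 11.8 (SD, n = 5) in NC1 LGs, and NOD-FMT exceeded PBS-T by 12.3 points (exact permutation p = 0.0389). With all libraries thinned to the lowest total, NOD-FMT exceeded PBS-T by 5.36 points (exact permutation p = 0.0204). Unmutated rows carried 53.0 counts on average in the LG against 9.72 for mutated rows, and 6.55 against 3.5 in the spleen, with higher means in 24 of 24 mice in both tissues (permutation adjusted p = 2.09e-05 over 23 added comparisons). Within a mouse, the LG share exceeded that of the spleen by 2.98 points, in 18 of 24 mice (permutation p = 0.0369). By group, the mean difference was 6.32 points in NOD-FMT, 0.51 in PBS-T and 0.73 in NC1 mice, so most of it came from NOD-FMT mice. Leaving out any of 9 mice lost that call (NOD-FMT mouse 3, 4, 5, 6, 7 or 9, or PBS-T mouse 1, 7 or 8), with permutation p up to 0.0735, and the difference was -0.0058 points when J mismatches also counted as mutations (permutation p = 0.996).

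**Figure D1:**
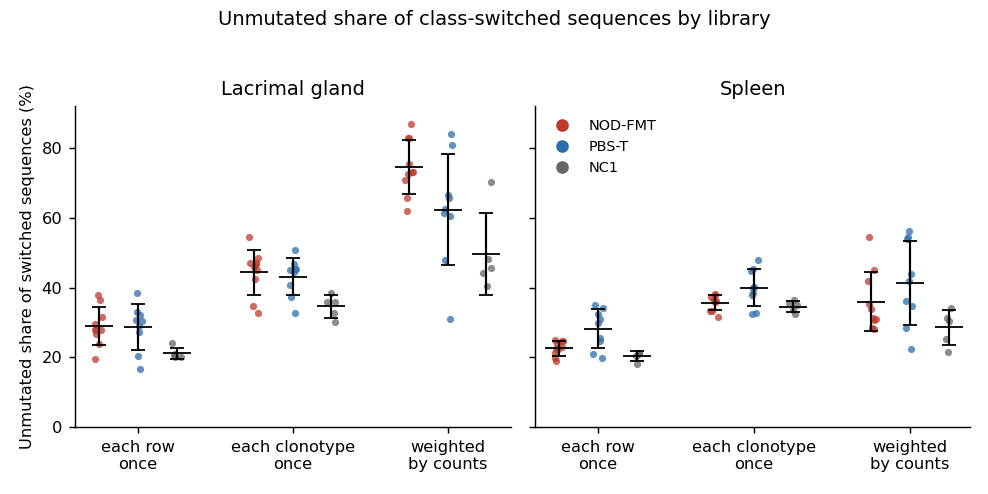
Unmutated share (%) of class-switched sequences in each of 48 libraries, with each row counted once, each clonotype counted once per class, and rows weighted by counts. Points are mice, and bars are means with SD. In the spleen the PBS-T mean of 28.2% of rows stands above 22.6% in NOD-FMT, and in the LG weighting by counts raises the NOD-FMT mean to 74.5%.

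The members lie at one end of a mutation scale, and rows with a single V mutation lie just outside the rule. A median of 27.9% of LG switched rows had 0 mutations and 35.4% had 1, whereas in the spleen 22.8% had 0 and 15.4% had 1. LG and spleen thus differed in the order of these 2 classes of rows. Of mutated switched rows, 80.2% in the LG and 76.0% in the spleen had a count of 1. How far such low-count rows set this order was not tested. Of clonotypes with switched rows, 31.1% in the LG and 30.8% in the spleen had unmutated rows only, on average over mice. Another 18.9% in the LG and 9.96% in the spleen held both classes, and these contained 66.7% of LG members and 40.9% of spleen members. A median of 55.4% of LG and 75.4% of spleen clonotypes with members held just 1 member row.

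IGHA members were the most numerous, and in the spleen IGHA was the least often unmutated isotype by median. The following shares are a description, since mutation and isotype chose the members. In the spleen the unmutated share of IGHA rows had a median of 20.3% over mice, with a range of 14.6% to 29.3%. The medians of the IgG isotypes rose from 23.5% for IGHG1 to 28.5% for IGHG2B, 28.7% for IGHG2C and 29.5% for IGHG3. IGHE, the isotype of allergy and helminth defense, had 633 switched rows in all spleens, and in the 10 spleens with at least 20 of them its median was 38.7%. In the LG the median was 26.8% for IGHA, 42.2% for IGHG2B and 35.7% for IGHG2C. LG IGHG1 had a median of 48.8% in the 12 LGs with at least 20 of its rows, while IGHG3 reached 20 rows in 2 LGs only. IGHA made up a median of 90.3% of LG members and 42.9% of spleen members, against 95.8% and 51.8% of mutated switched rows.

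Within single isotypes NOD-FMT was below PBS-T in the spleen and above it for IGHG2B and IGHG2C, but not for IGHG1, in the LG. In the spleen 3 of the 5 isotypes with enough rows passed, against 1 when rows with a single V mutation counted as unmutated, 0 of 6 with rows weighted by counts, and 2 to 5 when each mouse was left out in turn, 5 without PBS-T mouse 2 or PBS-T mouse 8. Spleen IGHA was unmutated in 19.4% ± 1.4 (SD, n = 10) of NOD-FMT rows and 25.5% ± 3.0 (SD, n = 9) of PBS-T rows, 6.04 points apart (exact permutation, adjusted p = 0.000162). IGHG1 was at 21.2% against 28.4% (exact permutation, adjusted p = 0.00376) and IGHG2B at 25.9% against 34.9% (exact permutation, adjusted p = 0.0289). IGHG2C and IGHG3 were 5.35 and 6.56 points lower in NOD-FMT and did not pass (exact permutation, adjusted p = 0.135 and 0.0947). NC1 spleens were lowest for IGHA, with a mean of 15.9%, and between the other groups for IGHG1, at 25.3%. For IGHG2B, IGHG2C and IGHG3 their means of 34.7%, 29.4% and 31.6% lay near those of PBS-T (34.9%, 30.9% and 32.7%). NOD-FMT was below both there, at 25.9%, 25.5% and 26.2%. Single isotypes were not tested against NC1. In the LG, IGHG2B was unmutated in 49.7% ± 7.2 (SD, n = 10) of NOD-FMT rows and 37.8% ± 11.1 (SD, n = 9) of PBS-T rows, and IGHG2C in 39.1% against 27.3% (n = 10 and 7), both higher in NOD-FMT (exact permutation, adjusted p = 0.0268 each). Without PBS-T mouse 5, 0 of the 3 LG isotypes passed, as was so when a single V mutation was allowed and with each clonotype counted once, and 0 of 2 passed among rows of 2 or more counts. With sequences shared by 3 or more mice kept, with those of 2 or more mice left out, or with the replicate number as a block, 1 passed. LG IGHA differed by -0.11 points (exact permutation, adjusted p = 0.971). LG IGHG1 reached 20 rows in 3 NOD-FMT and 8 PBS-T LGs, too few to test. Its means went the other way, at 27.6% in NOD-FMT and 46.9% in PBS-T. The difference between the tissues in the NOD-FMT effect, tested over all isotypes together, was 5.81 points (exact permutation p = 0.0762, adjusted p = 0.305).

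**Figure D2:**
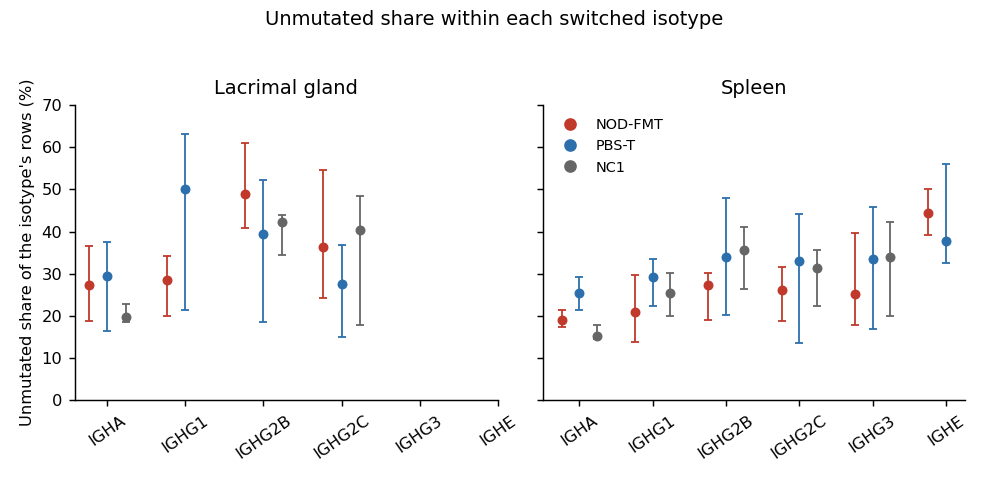
Unmutated share (%) of the rows of each switched isotype by tissue and group. Points are medians and bars run from the lowest to the highest library with at least 20 rows of the isotype, drawn where 3 or more libraries had them. Spleen IGHA is lowest in NC1 and highest in PBS-T mice, and IGHG2B stands above IGHA in the medians of every group.

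Many spleen members had an IGHM relative in their own library. A row has an IGHM partner when its clonotype also occurs with IGHM in the same library. In the spleen 40.0% ± 6.6 (SD, n = 24) of members had one, with a median of 39.7%. NOD-FMT mouse 4 was lowest, at 26.8%, and NOD-FMT mouse 3, the deepest library, was highest, at 55.8%. In the spleens of other mice the same clonotypes were found with IGHM for 1.93% ± 0.34 (SD, n = 24) of members, so the own mouse gave 38.1 points more, in 24 of 24 mice (permutation p = 1e-05, the smallest these resamples can give).

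The comparison with mutated switched rows depended on the unit and on depth. Counting rows, 44.4% of mutated spleen rows had an IGHM partner. Members minus mutated rows was -4.45 points, and members were higher in 2 of 24 mice (permutation p = 1e-05). With all spleens thinned to the lowest total the difference was -0.44 points and no longer passed (permutation p = 0.677), and it was 2.95 points among rows of 2 or more counts (permutation p = 0.0319) and 7.70 points with rows weighted by counts (permutation p = 0.00033). Counting each clonotype once, members led with 29.0% against 17.2%, a difference of 11.8 points (permutation p = 1e-05). The exact nucleotide sequence of a member was found in an IGHM row of the same spleen for 24.5% ± 3.9 (SD, n = 24), and that of a mutated row for 5.73% ± 1.92 (SD, n = 24). These identity shares are a description, since the number of mutations chose the members.

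By isotype, IGHG3 had partners most often among the IgG and IgA members, as it also had among mutated switched rows. A median of 56.5% of IGHG3 members and 52.6% of IGHG2C members had an IGHM partner in the spleen, against 36.7% for IGHG2B, 34.8% for IGHA and 34.0% for IGHG1. Each clonotype counted once, the order of the first places was the same, with 53.1% for IGHG3 and 45.0% for IGHG2C. These values are a description.

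In the LG few members had an IGHM partner, but in most LGs few rows were IGHM rows that could serve as one. The share had a median of 1.77% over mice and was 0% in PBS-T mouse 1 and NC1 mouse 3, where 0 of 1005 and 0 of 765 rows allow up to 0.299% and 0.392%. These limits cover the sampling of members only, not that of IGHM rows. The share reached 30.4% in PBS-T mouse 9, where 697 members and 1474 mutated switched rows were kept from 4595 rows. NC1 mouse 3 kept 765 and 3017 from 4108 rows, which left few that could be IGHM. How far the number of IGHM rows set the LG share, or its distance from the spleen, was not tested. Mutated LG rows had partners more often, at 8.45% against 4.90% on average (permutation p = 0.0203), but members were higher in 9 of 24 mice and the gap was wide in few. It was 27.8% against 55.6% in PBS-T mouse 2, 0.22% against 23.8% in PBS-T mouse 8, 30.4% against 44.4% in PBS-T mouse 9, 17.8% against 26.4% in NOD-FMT mouse 7 and 6.03% against 14.6% in PBS-T mouse 5. The call was lost after thinning (-2.09 points, permutation p = 0.0596), among rows of 2 or more counts (-1.24 points, permutation p = 0.283), with unmutated IGHM partners only (-0.62 points, permutation p = 0.448) and within the joined tables (-2.73 points, permutation p = 0.372). The sign turned with rows weighted by counts (1.54 points, permutation p = 0.581), with a single V mutation allowed (1.31 points, permutation p = 0.523) and with clonotypes counted once (0.33 points, permutation p = 0.00254). Looking for IGHM rows in either tissue of the mouse raised the mean of members from 4.90% to 30.8% ± 10.9 (SD, n = 24) and that of mutated rows to 44.8% ± 12.7 (SD, n = 24). The difference was then -14.0 points, and members were higher in 0 of 24 mice (permutation adjusted p = 2.09e-05). Of LG clonotypes with members, 38.4% ± 13.3 (SD, n = 24) also occurred in that mouse's spleen, from 3.7% in PBS-T mouse 5 to 67.6% in PBS-T mouse 4, and 40.6% of clonotypes with mutated rows were (permutation adjusted p = 0.0944). NOD-FMT and PBS-T members did not differ detectably in partner share in the spleen (1.2 points, exact permutation p = 0.733) or the LG (-4.04 points, exact permutation p = 0.335).

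The J segment was not used by the rule, but its mismatches were not independent of it. Distinct sequences of 1 clone that share an unmutated V segment can differ only outside it. Over pooled LG rows a J mismatch was found in 24.2% of those with 0 V mutations, 8.60% with 1 and 20.1% with 2. In the spleen these values were 13.8%, 15.4% and 23.6%. In the spleen 13.5% ± 1.6 (SD, n = 24) of members differed from the germline J gene, against 27.4% ± 4.0 of mutated switched rows, and members were lower in 24 of 24 mice (permutation p = 1e-05). Spleen members with 10 or more counts were at 7.12%. So some rows with an unmutated V segment differed from germline elsewhere. In the LG the order of the classes depended on row counts. Over all LG rows members were higher, at 23.3% against 16.2% (permutation p = 0.00203), but among rows with 10 or more counts members were at 4.66% and mutated rows at 21.4%, with members lower in 24 of 24 mice (permutation adjusted p = 2.09e-05). Among LG rows with a single count members were at 38.2% and mutated rows at 15.7%. The LG call over all rows was lost after thinning and within the joined tables. Its sign turned with each clonotype counted once, rows weighted by counts, rows of 2 or more counts, or a single V mutation allowed. Rows with 1 count were 52.5% of LG members, and what the count-1 rows carry was not tested.

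**Figure D3:**
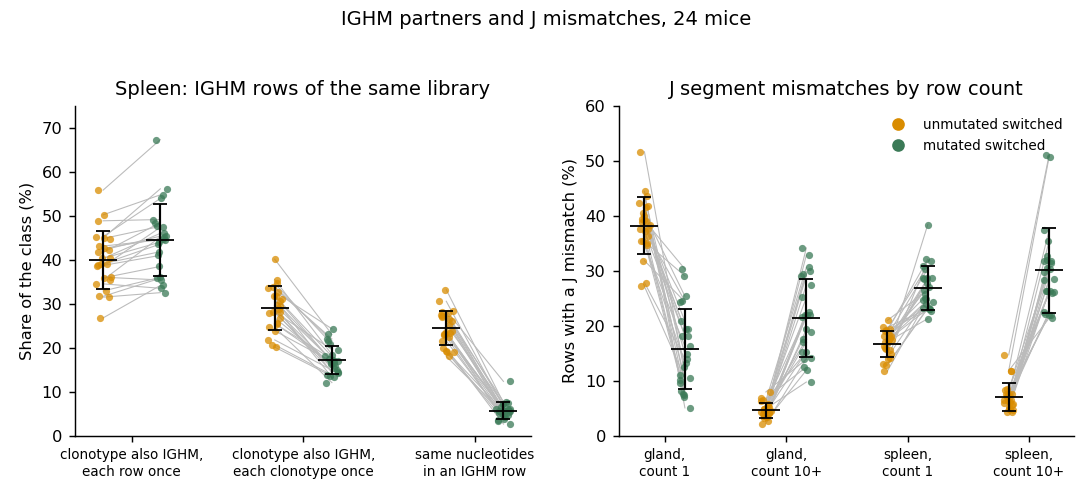
Left, share (%) of unmutated and mutated switched spleen rows with an IGHM relative in the same library, by 3 definitions. Right, share (%) of rows with a J mismatch among rows of count 1 and of count 10 or more. Points are mice, lines join the classes of a mouse, and bars are means with SD. Members fall below mutated rows when each row counts (40.0% against 44.4%) and above them when each clonotype counts (29.0% against 17.2%).

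The HCDR3 of members was slightly longer than that of mutated rows in the spleen when rows were counted. Means were 11.59 ± 0.24 and 11.39 ± 0.31 residues (SD, n = 24), a difference of 0.20 residues in 22 of 24 mice (permutation p = 1e-05), which turned to -0.095 residues when each clonotype was counted once (permutation p = 0.00039). In the LG the lengths were 11.56 ± 0.46 and 11.45 ± 0.72 residues (SD, n = 24) and did not differ detectably (permutation p = 0.147). Members held fewer HCDR3 bases that were assigned to no gene, 6.69 against 7.19 in the spleen, lower in 24 of 24 mice (permutation p = 1e-05), and 6.55 against 6.78 in the LG (permutation p = 0.00579). The LG call was lost when J mismatches also counted as mutations (-0.015 bases, permutation p = 0.856) and within the 11 joined LG tables (-0.16 bases, permutation p = 0.275). HCDR3s with 0 such bases, as in clonotypes U and W, were 4.68% of spleen members and 3.93% of mutated rows (permutation adjusted p = 0.0104). A mutated HCDR3 base can fall outside the aligned genes, so both measures depend in part on mutation. They cannot tell a difference in joining from one in mutation. Spleen members of NOD-FMT mice had shorter HCDR3s than those of PBS-T mice, 11.44 ± 0.21 (SD, n = 10) against 11.73 ± 0.23 (SD, n = 9) residues, 0.29 apart (exact permutation p = 0.0107).

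V gene use of members departed from that of mutated switched rows in both tissues. Of 95 V genes tested there, 49 passed (51.6%), 34 higher in members (35.8%) and 15 lower (15.8%). Of 84 tested in the LG, 26 passed (31%), 21 higher (25%) and 5 lower (5.95%). The split by direction depended on the scaling. With edgeR's quasi-likelihood test on row numbers, which normalizes by the bulk of the genes, 40 spleen genes passed, 16 higher (16.8%) and 24 lower (25.3%), and 10 LG genes passed, 0 higher and 10 lower (11.9%). All 5 lower LG calls and all 15 lower spleen calls passed there in the same direction, as did 15 of the 34 higher spleen calls and 0 of the 21 higher LG calls, 7 of which had the opposite sign. Weighted by counts 15 spleen and 6 LG genes passed, among rows of 2 or more counts 29 and 14. Of LG genes, 0 passed within the joined tables and 9 within the other LGs. With each clonotype counted once 14 LG genes passed, and with a single V mutation allowed 8. Without V genes seldom unmutated in IGHM, described below, 38 of 88 spleen and 17 of 81 LG genes passed. By family, IGHV1, the largest family of the mouse, was 58.6% of spleen members and 67.2% of mutated rows, lower in 24 of 24 mice (permutation adjusted p = 2.8e-05), with 7 of its 48 genes higher and 9 lower. IGHV2, IGHV3, IGHV5, IGHV6, IGHV7, IGHV9 and IGHV10 were each higher in members there, by 0.86 to 1.96 points (permutation adjusted p from 2.8e-05 to 0.00997). The small families IGHV13 and IGHV15 were higher by 0.095 and 0.044 points (permutation adjusted p = 0.00156 and 0.00331), and IGHV4 was 0.67% of members and 1.15% of mutated rows, lower in members (permutation adjusted p = 0.00177). In the LG the families IGHV2, IGHV3 and IGHV5 were higher in members, by 0.98, 0.81 and 1.31 points (permutation adjusted p = 0.0321 each). Families are shares of 1 whole, and they were not tested in edgeR or without V genes seldom unmutated in IGHM. IGHV1 includes IGHV1-69, IGHV1S137 and IGHV1S26, whose spleen IGHM rows were unmutated in 0.33%, 0% and 0%. IGHV1-69 alone was 2.31 points lower in spleen members, against 8.56 points for the family, so part of that deficit follows from the choice of rows.

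The 5 spleen genes with the largest called excess in members were IGHV9-3, IGHV3-6, IGHV10-1, IGHV6-3 and IGHV7-3. IGHV9-3 (chromosome 12, 114140692-114141122) was 2.21% of members and 1.33% of mutated rows, higher in 22 of 24 mice (permutation adjusted p = 9.5e-05). IGHV10-1 (114479005-114479451) was 1.19% against 0.44% and higher in 24 of 24 mice (permutation adjusted p = 9.5e-05). IGHV3-6, IGHV6-3 and IGHV7-3 were 0.86, 0.75 and 0.63 points higher. In edgeR only IGHV9-3 and IGHV10-1 of these 5 passed, and IGHV3-6 (log2 fold change 0.03, adjusted p = 0.837), IGHV6-3 (0.18, adjusted p = 0.158) and IGHV7-3 (0.39, adjusted p = 0.0698) did not. The same direction was seen between unmutated and mutated IGHM rows for IGHV9-3, IGHV3-6 and IGHV10-1, and the opposite one, past the threshold, for IGHV6-3 (-0.67 points). In the LG the largest called excesses were those of IGHV1-22, IGHV1-64, IGHV1-18, IGHV1-39 and IGHV14-3, from 1.10 points for IGHV1-22 to 0.49 for IGHV14-3. None of these 5 passed in edgeR, where the log2 fold changes were -0.18, -0.24, -0.01, 0.16 and 0.03 (adjusted p from 0.515 to 0.955).

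The largest deficits among genes that passed fell on 2 kinds of gene. IGHV1-69 (115623161-115623595) was 0.037% of spleen members and 2.35% of mutated switched rows, 2.31 points lower, which is given as a description. Its IGHM rows in the spleen were unmutated in 0.33% of cases, and those of IGHV8-5 and IGHV2-6-1, which with IGHV1-69 were the other seldom unmutated genes among the 5 called LG deficits, in 0.010% and 0.035%. Of the lower calls, 7 of 15 in the spleen and 3 of 5 in the LG were of genes unmutated in IGHM less than 0.5 times as often as the median V gene. The germline reference against which these genes were counted was not examined here. IGHV1-76, IGHV1-53, IGHV1-55 and IGHV1-26 had IGHM rows unmutated in 67.3% to 77.1%, and they were 1.66, 1.41, 1.40 and 1.24 points lower in spleen members than in mutated rows. Among spleen IGHM rows IGHV1-26 went the other way, 1.34 points higher in unmutated rows (permutation adjusted p = 0.00186). IGHV1-26 (114788372-114788805) and IGHV1-76 (115847881-115848331) had the largest called LG deficits, at 2.08 and 1.32 points (permutation adjusted p = 0.00396 and 0.00663). In the LG, IGHV1-9 (-2.81 points, permutation adjusted p = 0.0685) and IGHV1-53 (-1.35 points, permutation adjusted p = 0.115) did not pass, but in edgeR both were lower in members, with log2 fold changes of -1.15 (adjusted p = 0.00109) and -0.79 (adjusted p = 7.1e-05). Of the 49 spleen genes, 29 passed in the same direction in IGHM rows, 7 in the opposite one, and 13 did not pass there. Among IGHM rows of the spleen 65 of 95 genes passed (68.4%), 49 higher in unmutated rows (51.6%) and 16 lower (16.8%). Among IGHM rows of the LG 10 of 84 passed (11.9%), 8 higher (9.52%) and 2 lower (2.38%), and 4 of the 26 LG genes passed in the same direction there. Most LGs held few IGHM rows, so the lower number of calls there cannot be read as a difference between the tissues.

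**Figure D4:**
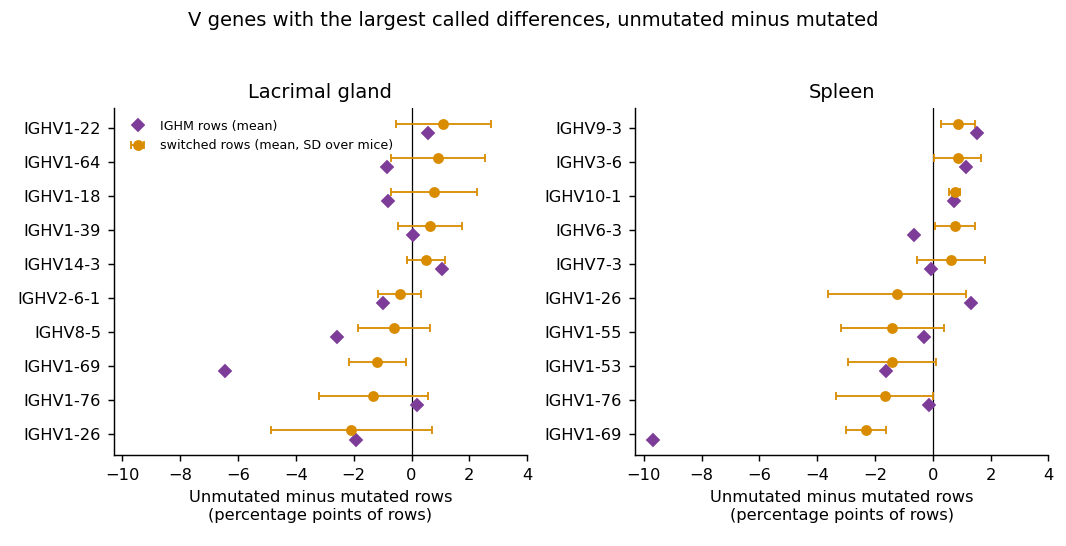
Difference in V gene use between unmutated and mutated rows, in percentage points of rows, for the 5 genes with the largest called excess and the 5 with the largest called deficit in each tissue. Circles are switched rows with the SD over 24 mice, and diamonds are IGHM rows. IGHV1-69 has the largest spleen deficit in both row types.

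The B-1 cell genes were scarce in the spleen and uneven over LGs. B-1 cells are innate-like cells rich in IGHV11 and IGHV12-3 receptors, which bind phosphatidylcholine. IGHV11-1 passed the minimum of 100 rows in neither tissue, and IGHV12-3 did so in the LG only. IGHV11-2 was 0.091% of spleen members and 0.11% of mutated rows, and neither it in either tissue nor IGHV12-3 in the LG passed (permutation adjusted p = 0.997, 0.525 and 0.565). In the LG, IGHV11-2 was 0.35% ± 1.30 (SD, n = 24) of members and 0.48% ± 1.87 (SD, n = 24) of mutated rows. Its mean was 0.18% in NOD-FMT and 0.016% in PBS-T members, both below the mean of all mice, so the rest lay in NC1 LGs. The SD of 1.30 over all mice is large against their mean of 0.35%. A single LG can give such values, so this cannot be read as a trait of the NC1 group. IGHV7-1, the gene of the phosphorylcholine-binding T15 type to which clonotype U corresponds in its V and J genes, was 0.45% of spleen members and 0.27% of mutated rows, higher in 23 of 24 mice (permutation adjusted p = 0.0312). In LG members it was 0.68% and did not pass (permutation adjusted p = 0.98).

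J gene use differed little. IGHJ3 was 21.8% ± 2.0 (SD, n = 24) of spleen members and 23.3% ± 3.0 of mutated rows, 1.54 points lower (permutation adjusted p = 0.00576). In the spleen 0 J genes passed when J mismatches counted as mutations, when a single V mutation was allowed, with rows weighted by counts, among rows of 2 or more counts, or after thinning. IGHJ2 was 35.8% ± 7.2 (SD, n = 24) of LG members and 40.0% ± 12.6 of mutated rows (permutation adjusted p = 0.0309), and leaving out NOD-FMT mouse 6 or PBS-T mouse 2, 4, 6, 8 or 9 lost that call. In the LG 0 J genes passed when a single V mutation was allowed, with rows weighted by counts, among rows of 2 or more counts, after thinning, or within the joined or the other LGs. No other J gene passed in these counts of rows. When each clonotype was counted once, all 4 J genes passed in the spleen and 0 in the LG.

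Between NOD-FMT and PBS-T members, 1 V gene passed in each tissue, which is 1.19% of the LG and 1.05% of the spleen genes, while 13 and 10 had an unadjusted permutation p under 0.05. The number that passed in the LG was 3 in edgeR (IGHV6-3 and IGHV10-3 higher, IGHV1-9 lower), 6 after thinning, 5 among rows of 2 or more counts, 2 with a single V mutation allowed or J mismatches counted, and 0 with rows weighted by counts, within the joined tables or the other LGs, or with the replicate number as a block. In the spleen it was 4 with a single V mutation allowed, 2 with each clonotype counted once, and 0 with rows weighted by counts or with the block. In the LG this was IGHV6-3 (114391712-114392169), the V gene of clonotypes P and Q. It made up 1.42% to 8.21% of NOD-FMT members, with a median of 5.64%, and 0% to 2.30% of PBS-T members, with a median of 0.90%. In NC1 mice it was 0.16% to 4.31%, with a median of 1.76%. The means of NOD-FMT and PBS-T were 5.20% ± 2.35 (SD, n = 10) and 1.00% ± 0.67 (SD, n = 9), and the groups overlapped at their ends (exact permutation, adjusted p = 0.0164). The 0 of 414 rows in PBS-T mouse 2 allow a share of up to 0.725%. Weighted by counts the difference was 5.29 points (exact permutation p = 0.00132, unadjusted), against 4.19 points for rows, although 0 V genes passed after adjustment. Without clonotypes P and Q the difference was 3.54 points (exact permutation p = 0.000834, unadjusted), and with each clonotype counted once it was 2.98 points (exact permutation p = 0.000769, unadjusted), at which 0 V genes passed after adjustment. Mutated switched rows differed in the same direction, by 3.44 points (exact permutation p = 0.00246, unadjusted), and LG IGHM rows by 1.41 points, which did not pass (exact permutation p = 0.356, unadjusted).

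In the spleen the gene was IGHV14-3 (114059845-114060321). It made up 1.51% to 4.00% of NOD-FMT members, 0.77% to 1.67% of PBS-T members and 1.00% to 1.51% of NC1 members, with medians of 2.12%, 1.24% and 1.24%. NOD-FMT and PBS-T overlapped between 1.51% and 1.67%, and their means of 2.34% ± 0.74 (SD, n = 10) and 1.24% ± 0.30 (SD, n = 9) differed (exact permutation, adjusted p = 0.0144). Without PBS-T mouse 3 or PBS-T mouse 9, 0 spleen genes passed, and up to 4 passed without another mouse. Weighted by counts the difference was 0.81 points (exact permutation p = 0.0544). Mutated switched rows differed by 1.83 points (exact permutation p = 0.000314, unadjusted) and spleen IGHM rows by 0.17 points (exact permutation p = 0.0438, unadjusted).

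**Figure D5:**
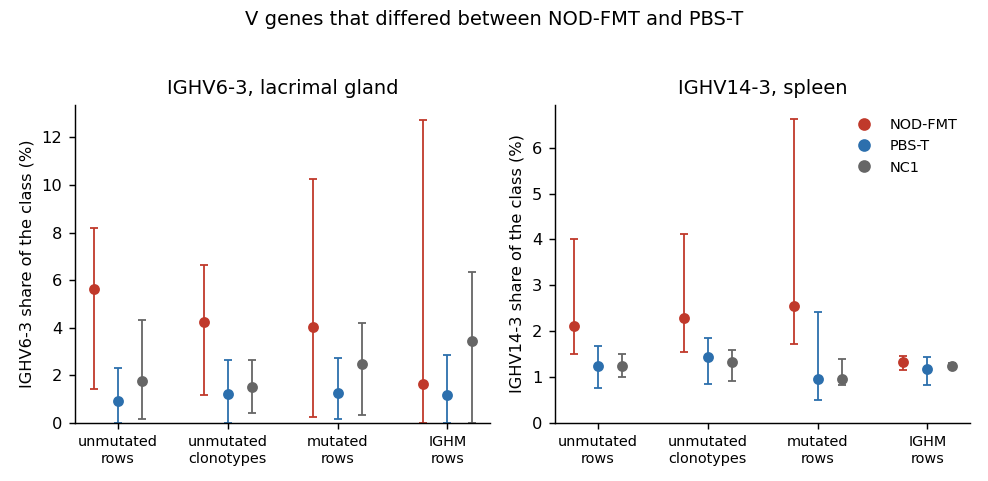
Share (%) of IGHV6-3 in the LG and of IGHV14-3 in the spleen among unmutated switched rows, clonotypes with such rows, mutated switched rows and IGHM rows, by group. Points are medians and bars run from the lowest to the highest mouse. NOD-FMT medians for unmutated rows are 5.64% for IGHV6-3 and 2.12% for IGHV14-3, against 0.90% and 1.24% in PBS-T.

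Most unmutated switched clonotypes, pooled over mice, belonged to 1 mouse. In the LG 13756 clonotypes had members in 1 mouse only, 812 in 2 and 66 in 3, and the widest occurred in 8. Of the 812, NC1 mice 2 and 3 shared 190 and PBS-T mouse 5 held 372. Counting any switched row of another LG as a match, 58.3% and 74.2% of the member clonotypes of NC1 mice 2 and 3, 38.9% of those of NC1 mouse 4 and 30.9% of those of PBS-T mouse 7 were shared, against 4.23% to 18.8% in the other 20 LGs. In the spleen 79505 had members in 1 mouse only, and 2 occurred in 14. The clonotypes in most mice were chosen for that, so the following is a description. Clonotype P had members in the LG of 8 NOD-FMT, 0 PBS-T and 0 NC1 mice, and in the spleen of 7, 0 and 0. It was at most 1.01% of the switched counts of an LG, in NOD-FMT mouse 6, and its 2761 LG counts were IGHA except for 4. Its LG members were coded by 14 different HCDR3 nucleotide sequences. With IGHM it was found in the spleen of 9 NOD-FMT and 1 NC1 mice, and in 0 LGs. Clonotypes Q and R had LG members in 5 NOD-FMT mice each and in no PBS-T or NC1 mouse, but occurred with IGHM elsewhere. In the spleen Q had IGHM rows in 7 NOD-FMT, 1 PBS-T and 1 NC1 mice and R in 8, 4 and 2, and R also had mutated switched rows in the spleen of 1 PBS-T mouse. Clonotype Q reached 2.63% of the switched counts of NOD-FMT mouse 2.

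Clonotypes S and T recurred in both gavaged groups. Each had spleen members in 8 NOD-FMT, 6 PBS-T and 0 NC1 mice, and both were mostly mutated, with 71 unmutated against 2386 mutated switched rows for S and 34 against 838 for T. For T, unmutated refers to the V segment only, and the J difference named above remains. With IGHM, S was found in the spleens of 8 NOD-FMT, 7 PBS-T and 3 NC1 mice and T in those of 6, 5 and 0. With sequences shared by 3 or more mice kept, T was unmutated and switched in 10 NOD-FMT, 9 PBS-T and 0 NC1 spleens. Clonotype U differed from these, with spleen members in 5 NOD-FMT, 3 PBS-T and 3 NC1 mice and IGHM rows in the spleens of all 24 mice, and it rose to 23 mice when shared sequences were kept.

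The most expanded unmutated switched clonotypes were private or nearly so. Clonotype W made up 36.1% of the switched counts of the LG of PBS-T mouse 2 (95% Wilson interval 35.7% to 36.4%), with 22694 of its 23879 unmutated counts in IGHG2B and 38 IGHM rows in the LG of 1 mouse. An IGHV1-72/IGHJ2 clonotype made up 32.8% in PBS-T mouse 9 (32.4% to 33.2%), mostly as IGHG2C. Clonotype X made up 25.6% in NOD-FMT mouse 5 (25.4% to 25.9%), nearly all as IGHA. Clonotype Y, at 29.5% of the switched counts of the spleen of NOD-FMT mouse 8 (29.2% to 29.7%), spread over isotypes, with 17894 counts of IGHA, 9433 of IGHG2C, 1885 of IGHG2B and 212 of IGHG1. Clonotypes W, X and Y each also held mutated switched rows, at 495, 1030 and 4457 counts. The intervals cover counting error only.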

How the data were processed

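The deposited tables list, per library, each productive heavy-chain sequence with its isotype, V, D and J genes, HCDR3, V mutations and count. The authors merged reads with PEAR, filtered on quality, clustered reads by UMI with Clustal Omega, dropped clusters of 1 read, and assigned genes with IgBLAST, and the counts they deposited are numbers of UMI consensus sequences, not normalized. The germline release is not given in the sources used here. Tables with 2 library prefixes came from 6 NOD-FMT, 4 PBS-T and 1 NC1 LGs. An error left in a consensus would move a row out of the unmutated class.

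Rows weighed equally. Groups were compared by exact permutation over mice and classes within mice by sign-flip permutation with 100000 resamples, two-sided, with a threshold of 0.05 and Benjamini-Hochberg adjustment over V genes with at least 100 rows, J genes or isotypes. V genes named are the 5 largest called differences each way per tissue, all that passed between groups, and a B-1 list. Clonotypes named come from the 5 in most mice and the 5 with the largest library share per tissue. On simulated data the V gene test found 92% of 20 planted 2-fold changes among 95 spleen genes and 74% among 84 LG genes. It also called 2.13% and 1.41% of the genes without a planted change. The simulated rows were drawn without clonotypes that fill many rows, so these rates do not cover clonal data. Members and lists were chosen with earlier results of these data known. The labels call the mice biological replicates. Positions are those of GENCODE M21 for GRCm38, by symbol, and the tools were R 4.3.3 with edgeR 4.0.16, and SciPy 1.17.1 and pandas 2.3.3 in Python 3.11.15, with Matplotlib 3.10.9 for figures.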

Additional observations from a re-analysis of the deposited data

Results flagged for a closer look

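In 3 of 24 tests of groups of 5 to 10 libraries, 1 library stood far from the rest, where chance flags about 1 group in 20. The LG of NOD-FMT mouse 7 had an IGHM partner for 17.8% of unmutated switched rows (95% Wilson interval 16.5% to 19.2%), against a group median of 3.16%. The LG of NC1 mouse 2 had an unmutated share of 24.1% of switched rows (22.7% to 25.5%), the highest of its group of 5. The spleen of NC1 mouse 5 had 18.2% (17.7% to 18.7%), the lowest of its group. The causes were not tested.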

How the results depend on the processing

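Of 362 values under alternatives, 255 kept their direction and side of the threshold, or, for counts of genes, stayed within 1.5 times. Slashes name the 2 groups whose unmutated shares were compared, in points, and the cause of the changes was not tested. J mismatches counted as mutations, identical rows joined, isotypes weighted equally, the removal of 3 LGs and the results on J mismatches and unassigned bases were chosen after seeing the data.

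With J mismatches counted as mutations, the sign changed for LG NOD-FMT/PBS-T (-0.501) and LG minus spleen (-0.00585). The call was lost for LG unassigned bases (-0.0145). The counts moved for LG V genes between groups (2) and spleen J genes (0). With 1 V mutation also taken as unmutated, the sign changed for LG partner share (1.31), LG J mismatches (-9.54), LG member HCDR3 length (0.00443) and spleen partner share (3.02). No longer past the threshold were LG PBS-T/NC1 (13.5). A call was gained for spleen NOD-FMT/NC1 (5.46). There were other counts of LG isotypes (0), LG V genes between classes (8), LG J genes (0), LG V genes between groups (2), spleen isotypes (1), spleen J genes (0) and spleen V genes between groups (4). Without the LGs of NC1 mice 2 and 3 and PBS-T mouse 5, the sign changed for LG NOD-FMT/PBS-T (-1.26). Numbers that passed changed to LG isotypes (0). With partners limited to unmutated IGHM rows, the sign changed for spleen partner share (14.6). The call was lost for LG partner share (-0.618). With each clonotype once per class, the sign changed for LG partner share (0.328), LG J mismatches (-7.39), spleen partner share (11.8) and spleen HCDR3 length (-0.0955). No longer past the threshold were spleen PBS-T/NC1 (5.4). There were other counts of LG isotypes (0), LG V genes between classes (14), LG J genes (0), LG V genes between groups (0), spleen J genes (4) and spleen V genes between groups (2). With edgeR on numbers of rows, numbers that passed changed to LG V genes between classes (10) and LG V genes between groups (3). With identical rows joined, the call was lost for LG minus spleen (1.12). With sequences of 2 or more mice left out, no longer past the threshold were LG minus spleen (2.69). There were other counts of LG isotypes (1). With isotypes weighted equally, the sign changed for LG NOD-FMT/PBS-T (-1.86) and spleen NOD-FMT/NC1 (-3.74). A test was no longer passed for LG NOD-FMT/NC1 (3.66), LG PBS-T/NC1 (5.52) and spleen PBS-T/NC1 (3.09). In merged LG libraries, the sign changed for LG NOD-FMT/PBS-T (-2.73) and LG member partner share (3.05). The call was lost for LG partner share (-2.73), LG J mismatches (5.05) and LG unassigned bases (-0.162). The counts moved for LG V genes between classes (0), LG J genes (0) and LG V genes between groups (0). With shared sequences kept, no longer past the threshold were LG PBS-T/NC1 (6.73) and LG minus spleen (2.51). There were other counts of LG isotypes (1), LG J genes (2) and spleen J genes (2). Without pairing the tissues of a mouse (no replicate block), a test was no longer passed for LG minus spleen (2.98). In the other LG libraries, the sign changed for LG member HCDR3 length (0.262). The call was lost for LG PBS-T/NC1 (4.35). The counts moved for LG V genes between classes (9), LG J genes (0) and LG V genes between groups (0). Relative to IGHM (log2 ratio), the sign changed for LG NOD-FMT/PBS-T (-0.200). With the replicate number as a block, a test was no longer passed for LG NOD-FMT/NC1 (7.58), LG PBS-T/NC1 (6.36) and spleen PBS-T/NC1 (8.43). Numbers that passed changed to LG isotypes (1), LG V genes between groups (0) and spleen V genes between groups (0). Weighted by counts, the sign changed for LG partner share (1.54), LG J mismatches (-14), LG member HCDR3 length (0.124) and spleen partner share (7.7). The call was lost for LG PBS-T/NC1 (12.6) and spleen NOD-FMT/PBS-T (-5.36). A call was gained for LG NOD-FMT/PBS-T (12.3). The counts moved for LG V genes between classes (6), LG J genes (0), LG V genes between groups (0), spleen isotypes (0), spleen V genes between classes (15), spleen J genes (0) and spleen V genes between groups (0). With rows of 2 or more counts, the sign changed for LG NOD-FMT/PBS-T (-0.225), LG J mismatches (-9.26) and spleen partner share (2.95). No longer past the threshold were LG partner share (-1.24). A call was gained for spleen NOD-FMT/NC1 (3.37). There were other counts of LG isotypes (0), LG V genes between classes (14), LG J genes (0), LG V genes between groups (5), spleen V genes between classes (29) and spleen J genes (0). Thinned to the lowest total, the sign changed for spleen member partner share (-0.423). A test was no longer passed for LG partner share (-2.09), LG J mismatches (1.22) and spleen partner share (-0.436). A call was gained for LG NOD-FMT/PBS-T (5.36) and spleen NOD-FMT/NC1 (2.99). Numbers that passed changed to LG J genes (0), LG V genes between groups (6) and spleen J genes (0). Without V genes seldom unmutated in IGHM, the call was lost for LG minus spleen (2.77). A call was gained for spleen NOD-FMT/NC1 (2.54). The counts moved for LG V genes between classes (17) and spleen J genes (2).

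With each mouse left out in turn, the values ran from -1.26 to 1.49 for LG NOD-FMT/PBS-T, 6.28 to 9.03 for LG PBS-T/NC1, 0 to 2 for LG isotypes and 0 to 2 for LG J genes. They ran from 1 to 3 for LG V genes between groups, 1.61 to 2.58 for spleen NOD-FMT/NC1 and 2 to 5 for spleen isotypes, and from 1 to 2 for spleen J genes, -0.468 to 2.76 for spleen member partner share, 0 to 4 for spleen V genes between groups and 2.44 to 3.91 for LG minus spleen. Same-numbered mice of NOD-FMT and PBS-T deviated with correlations of -0.335 to 0.0094 in the LG and -0.271 to 0.0406 in the spleen, 9 pairs each, and 0 of these pairs exceeded 0.1. Of 5 pairs each with NC1, 0 (NOD-FMT) and 2 (PBS-T) exceeded it in the LG, up to 0.288, and 3 and 0 in the spleen, up to 0.595, so the numbers were not taken as a pairing, and blocked comparisons with NC1 rest on 5 pairs, too few for the exact test to pass. Groups of 5 limit every comparison with NC1.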
